A study of Rattus norvegicus with 6 samples.

Results

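The nucleolar ribosome biogenesis and RNA polymerase I module is a set of 45 genes named by symbol, and all 45 were found among the 16551 rows of the mRNA table. Members were taken by symbol, and where a symbol has several rows the row with the highest mean over the 6 libraries was used. They were measured in cells that had been isolated from rat dorsal root ganglia, the sensory ganglia beside the spinal cord, and then cultured. Of the 6 libraries 3 are controls and 3 carry the prefix DM in their titles, taken here as the group kept for 48 h in high-glucose medium (45 mmol/L). The glucose level of the control medium, the strain, age and sex of the rats, and whether the libraries of a group came from separate cultures were not given, so p-values measure only the spread between these libraries, which may be technical. No library controlled for osmolarity, and the labels also describe paraformaldehyde fixation without saying whether it touched the sequenced cells. Levels are given as log2 CPM, a gene's reads relative to the scaled read total of its library. The libraries held 28780612 to 33108451 reads in genes, and their log2 values correlated at 0.985 to 0.986 within groups and 0.972 to 0.974 between them.

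Ribosomes are made in the nucleolus, where RNA polymerase I transcribes the ribosomal RNA genes. Small nucleolar ribonucleoproteins (snoRNPs) of the box C/D and box H/ACA classes modify and help cut the transcript, by methylating riboses and by converting uridines to pseudouridines. Large sets of assembly factors then fold it, trim it and add ribosomal proteins to build a small and a large subunit, which mature on separate routes and leave for the cytoplasm. The pathway is known for its cost to the cell and for following growth signals.

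In high glucose 35 of the 45 members fell and 2 rose, and the other 8 did not pass the test (limma, adjusted p under 0.05 over all genes). Among all genes of the table, 25.5% fell and 24.9% rose. The member median was a log2 fold change of -0.32, always given here as high glucose minus control, beside 0.01 over all genes. The falls were small: no member that fell reached 1.5-fold, and the steepest were Rrs1, a large-subunit assembly factor (1.49-fold lower), Npm1, the nucleolar chaperone nucleophosmin (1.46-fold lower), and Fbl, the ribose methylase fibrillarin (1.45-fold lower). The members that rose were Nop10, a core protein of the box H/ACA snoRNP (1.4-fold higher), and Rrn3, which brings RNA polymerase I to its promoters (1.15-fold higher). In 35 members every high-glucose library lay below every control library, which was so for 28.9% of all genes. In bulk RNA, fewer cells of a type and less RNA per cell cannot be told apart.

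**Figure D1:**
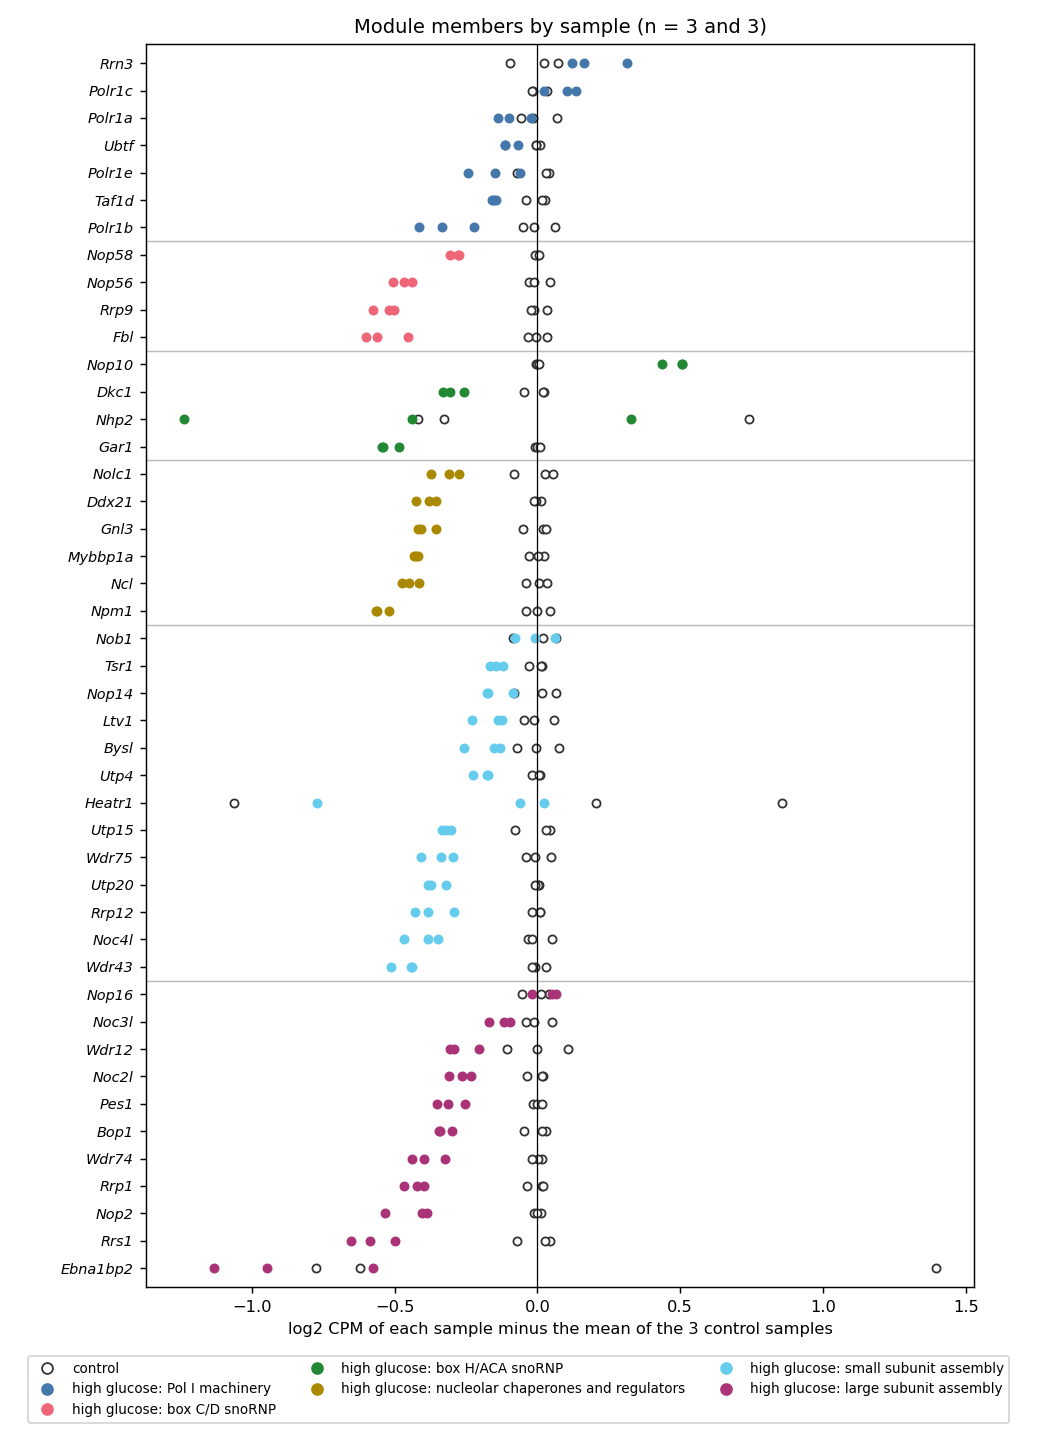
Log2 CPM of each member in each library minus the mean of its 3 control libraries, by role. Open circles are control libraries and filled circles high-glucose libraries; in 35 members all 3 filled circles lie left of all open ones, in Nop10 and Rrn3 they lie right, and Nhp2, Heatr1 and Ebna1bp2 are widely spread within groups.

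The share of all mRNA reads that fell on the 45 members uses no scaling factor between libraries. It amounts to scaling by total reads, so it depends on the reads of all other genes. The share was 0.356%, 0.358% and 0.356% in the control libraries and 0.309%, 0.305% and 0.301% in the high-glucose libraries. Npm1 and Ncl together gave 0.113%, 0.117% and 0.113% in control and 0.0888%, 0.0871% and 0.0879% in high glucose. The other 43 members gave 0.243%, 0.241% and 0.243% against 0.22%, 0.218% and 0.213%. None of these shares overlapped between the groups.

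The number of calls depended on the scaling. The deposited values carry scaling factors of 0.959 to 0.964 for the controls and 1.03 to 1.05 for high glucose. Scaling by total reads moved the median of all genes up by 0.11, to 0.13, and turned a split of 4228 lower against 4126 higher genes into 2847 against 5932. Under it 27 members fell and 4 rose, beside 17.2% and 35.8% of all genes. The member median was then -0.20 and, relative to the median of all genes, -0.33; this relative value is the same under both scalings because the change moves every gene equally. The 8 members that no longer passed were Taf1d, Ubtf, Utp4, Nop14, Tsr1, Bysl, Ltv1 and Noc3l, all with small falls in the deposited values, and Polr1c and Nop16 passed as higher.

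**Figure D2:**
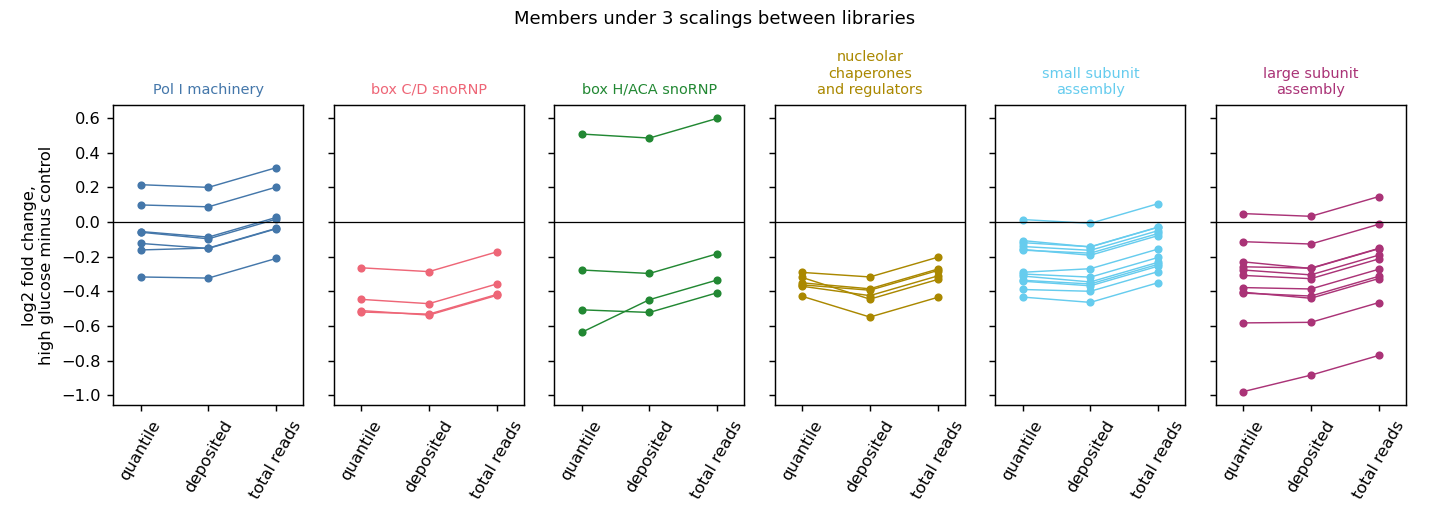
Log2 fold change of each member (lines, by role) after quantile normalization, with the deposited scaling, and after scaling by total reads. Scaling by total reads lifts every member by about the same amount, so members near 0 cross it, while the box C/D, chaperone and most large-subunit members stay below 0.

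Markers of cell types and of dividing cells moved in the same comparison. Of 15 proliferation genes 13 fell, with a median of -0.21, and their summed level of 1698 to 1712 CPM in the controls stood against 1451 to 1467 CPM. With scaling by total reads only 7 of the 15 fell, with a median of -0.098. Of 12 markers of Schwann and satellite glia 10 fell and 1 rose, with sums of 642 to 667 and 470 to 514 CPM. Of 16 pan-neuronal markers, which define the labelled cell, 8 fell and 1 rose, with sums of 123 to 128 and 83.7 to 86.7 CPM. Markers with high levels weigh most in such sums. The median log2 fold change of the 16 was -1.68, and 7 of the 8 falls were at least 1.5-fold. Among the 16, Snap25 and Rbfox3 lay below 0 log2 CPM in every library, and Tubb3 and Uchl1 had control means of 4.53 and 5.88. The one that rose was Syt1 (0.88 ± 0.068). The 10 fibroblast markers summed to 79045 to 82171 CPM in the controls and 69172 to 73057 CPM after glucose, with 5 lower and 5 higher (3 and 5 with scaling by total reads). The 12 mural and smooth muscle markers summed to 15024 to 15165 and 8447 to 8525 CPM, with 7 lower and 3 higher. Sums of 10 nociceptor markers were 5.89 to 6.02 CPM in control and 6.17 to 6.58 in high glucose, with 4 lower and 2 higher. The median of these 10 was -1.31, with 8 values below 0 and 2 above. P2rx3, 1 of the 2 that rose (1.15 ± 0.14), had the highest level of the 10 in high glucose and so weighs most in that sum. Sums of 9 endothelial markers were 144 to 152 and 153 to 157 CPM, with 1 lower and 1 higher. Sums of 11 macrophage markers were 13.5 to 15.0 and 13.2 to 14.5 CPM, with 4 lower and 1 higher. Every row had reads in at least 3 libraries, so no marker could be at 0 reads in all 6. Listed markers without a row were not counted. The part of dividing cells or of cell makeup in the fall of the module was not tested.

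Promoter letters, which the choice of genes did not use, were counted next. RefSeq windows of the rat build GRCr8, from 250 bases before to 50 after a gene's start, were matched by symbol for 42 members and for 11620 symbols of the table. The E-box CACGTG, a palindrome read by Myc and related factors and so searched once for both strands, stood in 16 of the 42 members' windows (38.1%) and in 8.76% of all. Within 50 bases of the start it stood in 12 members (28.6%) and in 3.29% of all. The letters CCGGAAGT, on either strand, of the kind that ETS factors bind, stood in 16 members (38.1%) and 6.98% of all, and CCAAT, on either strand, in 5 members (11.9%) and 37.2% of all. The windows below show the E-box, in capitals, of the 7 members that fell by at least 0.3 and hold it within 50 bases of the start, with up to 12 bases on each side. Not shown are Utp4 (-0.19), Bysl (-0.18), Tsr1 (-0.14), Noc3l (-0.13) and Ebna1bp2 (-0.88, not passed), which also hold it there. Negative positions lie before the gene's start, and its first base is 1.
Fbl (chr1:92597416-92597445, plus strand, E-box from base 22): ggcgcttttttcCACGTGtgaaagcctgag
Gnl3 (chr16:6219790-6219819, minus strand, E-box from base -25): agttccagttcgCACGTGgcgcccgagacg
Mybbp1a (chr10:57555445-57555474, plus strand, E-box from base -1): gtctttcgagccCACGTGtttggttcagca
Rrp12 (chr1:250655298-250655327, minus strand, E-box from base 4): gctgagaatacaCACGTGggttctgctgtg
Pes1 (chr14:83074284-83074313, plus strand, E-box from base -50): ccctaagcggggCACGTGcggtaggaagta
Rrp1 (chr20:10260552-10260581, plus strand, E-box from base -16): tggcgtgacgcaCACGTGtcgtcactcgag
Nop2 (chr4:159618992-159619015, plus strand, E-box from base 39): cttccccaagtgCACGTGgagcgg

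Of the 16 members with an E-box, 15 fell, all but Ebna1bp2, and the median was -0.35. Of the 26 members without one, 17 fell and 2 rose, with a median of -0.28. Among all matched genes 34.9% of those with an E-box and 26.7% of those without fell, and 24.2% and 26.9% rose. The ETS-type letters split the members differently: 11 of the 16 with them fell and 1 rose, with a median of -0.28, and 21 of the 26 without them fell and 1 rose, with a median of -0.32. A match of letters is a description and not a binding site, and the differences between members with and without a motif were not tested.

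**Figure D3:**
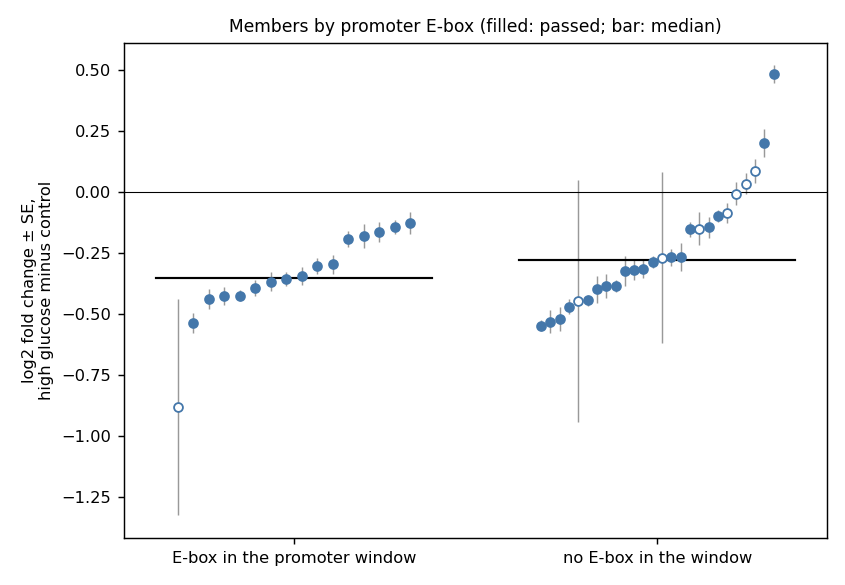
Log2 fold change ± SE of the 42 members with a matched promoter window, split by the presence of the E-box, each point a member (filled where it passed) and each bar a median. The members with an E-box all lie below 0, and both members that rose are among those without.

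RNA polymerase I and its factors had the median closest to 0 of the 6 roles, at -0.098. Of the 7 members 3 fell, 1 rose and the other 3 missed the threshold. Polr1a, the largest subunit (ENSRNOG00000009545), had 5.77, 5.90 and 5.81 log2 CPM in control and 5.80, 5.69 and 5.73 in high glucose. The groups overlapped, and its change of -0.088 ± 0.042 did not pass (adjusted p = 0.101), except without high glucose 1 (0.0493). Its partner in the catalytic core, Polr1b, had 4.38, 4.35 and 4.46 in control and 4.06, 4.17 and 3.98 in high glucose, and was 1.25-fold lower with no overlap (-0.32 ± 0.061, adjusted p = 0.000572). Polr1c, shared with RNA polymerase III, and Polr1e, of a peripheral pair of subunits, had changes of 0.087 ± 0.049 and -0.15 ± 0.067 that did not pass (adjusted p = 0.162 and 0.079), although Polr1e did without high glucose 2 (0.0427). Ubtf, the factor that coats the ribosomal RNA genes, stood at 7.25, 7.23 and 7.23 in control and 7.17, 7.12 and 7.12 in high glucose. The libraries did not overlap and it fell by a small amount (-0.098 ± 0.024, adjusted p = 0.00443), but its value was 0.016 when libraries were scaled by total reads and the call ended after quantile normalization (adjusted p = 0.0552).

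Taf1d, a subunit of the selectivity factor at the promoter, had 6.33, 6.32 and 6.26 in control and 6.14, 6.15 and 6.15 in high glucose and fell (-0.15 ± 0.030, adjusted p = 0.000806). Rrn3, the initiation factor through which growth signals reach the polymerase, went the other way, with 5.11, 4.95 and 5.06 in control and 5.36, 5.20 and 5.16 in high glucose. All 3 high-glucose libraries lay above the controls (0.20 ± 0.057, adjusted p = 0.01). The call of Rrn3 was lost without control 2 (adjusted p = 0.0541), without high glucose 1 (0.0589) and when 1 variance prior served all genes (0.0843), and its smallest p was 0.000405, with scaling by total reads.

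**Figure D4:**
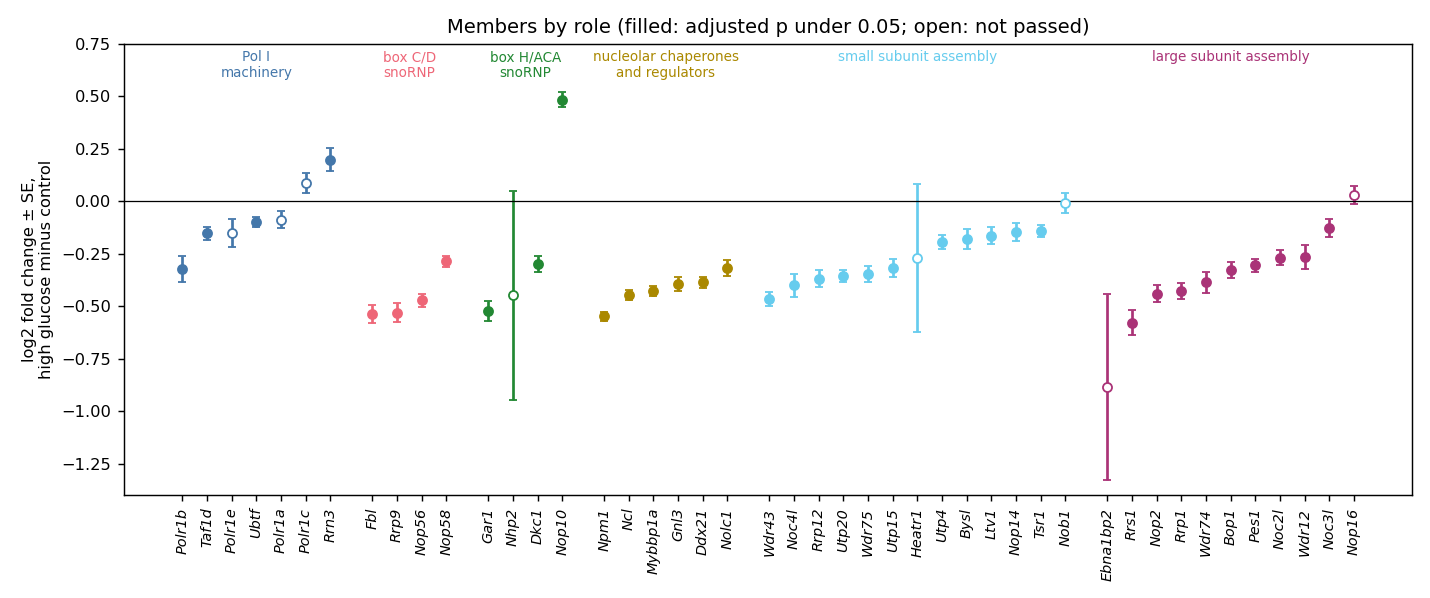
Log2 fold change ± SE of the 45 members, ordered within role; filled points passed the test and open points did not. Polymerase members lie between -0.32 and 0.20, Nop10 stands alone above 0.4, and most other members lie between -0.6 and -0.1.

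All 4 proteins of the box C/D group fell, with a median of -0.50. Fbl, the methylase itself (ENSRNOG00000019229), had 5.84, 5.81 and 5.88 log2 CPM in control and 5.39, 5.28 and 5.24 in high glucose. Its groups lay further apart than the spread within either (-0.54 ± 0.043, adjusted p = 1.79e-07). Nop56 and Nop58 are the paired scaffold proteins on which fibrillarin sits. Nop56 had 6.58, 6.59 and 6.65 in control and 6.14, 6.10 and 6.17 in high glucose (-0.47 ± 0.031, adjusted p = 3.26e-08). Nop58 had 6.96, 6.95 and 6.96 in control and 6.68, 6.65 and 6.68 in high glucose (-0.29 ± 0.025, adjusted p = 5.02e-07). Neither overlapped between groups. Rrp9, the protein particular to the U3 snoRNP that starts small-subunit assembly, had 5.00, 4.95 and 4.94 in control and 4.46, 4.45 and 4.39 in high glucose and fell by a similar amount (-0.53 ± 0.045, adjusted p = 3.88e-07). In GRCr8 it overlaps Parp3 on the opposite strand, whose value was 0.31, and the strand of the counting was not given. The remaining core protein of this particle, Snu13, which is no member, was 1.53-fold lower (-0.61 ± 0.12, adjusted p = 0.00101).

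The box H/ACA proteins did not move together. Gar1, which helps release the substrate, had 4.62, 4.63 and 4.64 log2 CPM in control and 4.09, 4.09 and 4.15 in high glucose and fell (-0.52 ± 0.049, adjusted p = 9.1e-07). Dkc1, the pseudouridine synthase dyskerin, whose gene is mutated in dyskeratosis congenita, had 5.65, 5.58 and 5.65 in control and 5.37, 5.29 and 5.32 in high glucose and fell too (-0.30 ± 0.038, adjusted p = 1.99e-05). Nop10, a small protein that binds dyskerin, had 5.27, 5.27 and 5.28 in control and 5.78, 5.71 and 5.78 in high glucose. Its control libraries agreed within 0.01 of each other, and all high-glucose libraries lay above them (0.48 ± 0.036, adjusted p = 9.56e-08). Nhp2, the RNA-binding subunit, had only 31 reads over the control libraries and 25 over the high-glucose libraries, and its value did not pass (-0.45 ± 0.50, adjusted p = 0.487). Pseudogenes named after it number 5 in GRCr8, and how the counting treated reads shared with copies was not given.

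The ratio of Nop10 to its partners within a library is free of the scaling between libraries. The difference in log2 value between Nop10 and Gar1 was 0.65, 0.64 and 0.64 in control and 1.69, 1.62 and 1.64 in high glucose, a shift of 1.01 in their ratio. Against Dkc1 the log2 difference was -0.38, -0.31 and -0.37 in control and 0.41, 0.42 and 0.46 in high glucose, a shift of 0.78. Both shifts had p = 0.1 in a two-sided exact permutation test, the smallest that 3 libraries against 3 allow, and the pairs were chosen after their values were seen. These ratios compare changes and not levels, since reads were not divided by gene length. The 250 bases before the starts of Gar1 and Dkc1, which fell, and of Nop10, which rose, are shown side by side, with matches to the E-box and to the ETS-type letters in capitals.
Gar1 (chr2:221056750-221056999, minus strand): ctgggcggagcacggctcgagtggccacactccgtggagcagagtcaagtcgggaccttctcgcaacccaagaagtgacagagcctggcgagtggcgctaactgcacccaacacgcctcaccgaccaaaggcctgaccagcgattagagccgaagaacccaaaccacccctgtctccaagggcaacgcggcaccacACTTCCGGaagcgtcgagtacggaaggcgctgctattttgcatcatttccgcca
Dkc1 (chrX:157751401-157751650, plus strand): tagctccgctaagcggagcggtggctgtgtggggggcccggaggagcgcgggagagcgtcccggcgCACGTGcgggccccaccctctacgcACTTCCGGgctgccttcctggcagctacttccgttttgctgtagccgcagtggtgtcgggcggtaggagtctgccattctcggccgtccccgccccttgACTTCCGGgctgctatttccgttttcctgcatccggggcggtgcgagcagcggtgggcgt
Nop10 (chr3:119521005-119521254, plus strand): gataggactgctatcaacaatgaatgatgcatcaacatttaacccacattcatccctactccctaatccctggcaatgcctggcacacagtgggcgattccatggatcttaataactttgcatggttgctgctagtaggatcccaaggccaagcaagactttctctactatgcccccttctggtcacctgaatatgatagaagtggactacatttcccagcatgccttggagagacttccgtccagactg

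Gar1, like Nop10, has no E-box in this stretch, and Dkc1 has one. ETS-type letters matched on the opposite strand in Gar1 and Dkc1 and did not match before the start of Nop10. No match says only that these letters are not in this window.

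Nucleolar chaperones and regulators fell without exception in the 6 members measured, with a median of -0.41. Npm1 (ENSRNOG00000004616), which shuttles ribosomal parts and holds the outer nucleolus together, had 9.14, 9.22 and 9.18 log2 CPM in control and 8.62, 8.61 and 8.66 in high glucose. It had the smallest adjusted p of the module (-0.55 ± 0.023, adjusted p = 3.42e-10). Ncl, nucleolin, which binds the nascent ribosomal RNA, had 9.26, 9.29 and 9.22 in control and 8.84, 8.78 and 8.81 in high glucose (-0.45 ± 0.023, adjusted p = 2.13e-09). Npm1 and Ncl had the most reads of the module, 51248 and 53952 over the control libraries. Ddx21, an RNA helicase of the nucleolus, stood at 7.29, 7.27 and 7.27 in control and 6.92, 6.90 and 6.85 in high glucose and Nolc1, a chaperone of snoRNPs, at 7.05, 7.08 and 6.94 in control and 6.71, 6.65 and 6.75 in high glucose. Both fell with no overlap (-0.39 ± 0.026 and -0.32 ± 0.038). Mybbp1a, a Myb-binding nucleolar protein, and Gnl3, the GTPase nucleostemin, had values of -0.43 ± 0.024 and -0.39 ± 0.033. Pseudogenes in GRCr8 carry the name of Npm1 in 20 cases, of Ddx21 in 9 and of Ncl in 5, so part of their reads could have been placed on copies. In all, 18 of the 45 members have a named pseudogene, among them Fbl with 7 and Pes1 with 6, and the same limit applies to them.

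The fall of Fbl and Npm1 against Polr1a, a polymerase subunit that did not pass, can also be read within libraries. The log2 difference between Fbl and Polr1a was 0.068, -0.087 and 0.064 in control and -0.41, -0.41 and -0.48 in high glucose, a shift of -0.45. For Npm1 against Polr1a it was 3.37, 3.32 and 3.36 in control and 2.81, 2.92 and 2.93 in high glucose, a shift of -0.46. Neither pair overlapped between groups, with p = 0.1 in the exact permutation test, and these pairs too were chosen after their values were seen. Other polymerase subunits had log2 fold changes from -0.53 (Cd3eap) to 0.43 (Polr2e), so the size of a shift depends on the subunit chosen. Cd3eap fell about as much as Fbl (-0.54) and Npm1 (-0.55).

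The 13 small-subunit assembly factors had a median of -0.27, and 11 of them fell, all but Heatr1 and Nob1. Wdr43, a subunit of the early complex that binds the start of the ribosomal transcript, had 6.26, 6.22 and 6.21 log2 CPM in control and 5.71, 5.79 and 5.78 in high glucose and was 1.38-fold lower (-0.46 ± 0.033, adjusted p = 7.09e-08). Its partners Wdr75, Utp15 and Utp4 fell by smaller amounts (-0.35 ± 0.038, -0.32 ± 0.043 and -0.19 ± 0.033). Utp4 lost its call when libraries were scaled by total reads (adjusted p = 0.0579). Heatr1, the largest protein of this complex, was erratic, with 595, 175 and 404 reads in control and 361, 217 and 387 in high glucose. The groups overlapped and its value did not pass (-0.27 ± 0.35, adjusted p = 0.56). Without control 2 it was -0.80 and passed (adjusted p = 0.0105), and without control 1 it was 0.16, with adjusted p from 0.0105 to 0.971 over all alternatives.

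Noc4l and Nop14 form a pair in the small-subunit precursor. Noc4l had 4.56, 4.47 and 4.48 in control and 4.04, 4.12 and 4.15 in high glucose (-0.40 ± 0.054, adjusted p = 3.37e-05). Nop14 had 5.79, 5.93 and 5.89 in control and 5.79, 5.70 and 5.69 in high glucose, with groups that met at their edges but did not overlap (-0.14 ± 0.043, adjusted p = 0.0123). Nop14 lay above the threshold without control 2 (adjusted p = 0.0667), after quantile normalization (0.063), with a single variance prior (0.0844) and with scaling by total reads (0.58). Utp20 and Rrp12, large repeat proteins that bind the maturing RNA, were 1.28-fold and 1.29-fold lower (-0.36 ± 0.029 and -0.37 ± 0.040).

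The factors that act late, on particles bound for the cytoplasm, showed small changes. Tsr1, which blocks premature joining of the subunits, had 6.44, 6.40 and 6.44 in control and 6.31, 6.28 and 6.26 in high glucose (-0.14 ± 0.029, adjusted p = 0.00103). Bysl and Ltv1, which accompany the particle out of the nucleus, had changes of -0.18 ± 0.049 and -0.16 ± 0.042 (adjusted p = 0.00754 and 0.00503). Bysl lost its call with a single variance prior (adjusted p = 0.0569), and all 3 lost it with scaling by total reads (adjusted p = 0.443, 0.3 and 0.341). Nob1, the nuclease that makes the last cut of the small-subunit RNA, had a change of -0.0083 ± 0.047 with overlapping groups (adjusted p = 0.902). Whether late factors changed less than early ones was not tested.

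Among the 11 large-subunit assembly factors 9 fell, all but Nop16 and Ebna1bp2, and the median was -0.33. Rrs1, which helps bring the 5S RNA into the particle, had 4.51, 4.49 and 4.39 log2 CPM in control and 3.88, 3.81 and 3.96 in high glucose. It had the steepest fall of the members that passed (-0.58 ± 0.060, adjusted p = 2.61e-06), although 14 pseudogenes carry its name in GRCr8. Nop2, a methylase of the large-subunit RNA, had 6.04, 6.01 and 6.02 in control and 5.64, 5.49 and 5.62 in high glucose (-0.44 ± 0.041, adjusted p = 8.64e-07). Rrp1 and Wdr74 fell by similar amounts (-0.43 ± 0.037 and -0.39 ± 0.048). The 3 subunits of the PeBoW complex, named after Pes1, Bop1 and Wdr12, fell side by side. Wdr12 had 4.71, 4.81 and 4.92 in control and 4.52, 4.61 and 4.51 in high glucose (-0.27 ± 0.058, adjusted p = 0.00164), and Pes1 and Bop1 had values of -0.31 ± 0.032 and -0.33 ± 0.038.

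Noc2l and Noc3l, which join in a carrier of large-subunit precursors, had changes of -0.27 ± 0.034 and -0.13 ± 0.044. Noc3l stood at 5.02, 4.92 and 4.95 in control and 4.85, 4.87 and 4.80 in high glucose, and its adjusted p of 0.0289 ranged from 0.0242 to 0.822. It exceeded 0.05 after quantile normalization (0.052), with a single variance prior (0.0542) and with scaling by total reads (0.822). Leaving out control 1 (0.112), control 3 (0.0514), high glucose 1 (0.0581) or high glucose 3 (0.0962) also ended the call. Nop16 overlapped between groups (0.032 ± 0.043, adjusted p = 0.569). Ebna1bp2, a partner of other large-subunit factors, had 36, 36 and 157 reads in control and 31, 42 and 31 in high glucose. Control 3 alone was high, and the value did not pass (-0.88 ± 0.44, adjusted p = 0.116); without control 2 it was -1.27 (adjusted p = 0.0373), and without control 3 it was -0.18 (0.604).

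Genes of small nucleolar RNAs often lie inside introns of ribosome genes. In GRCr8 7 of the 45 members (15.6%) contain at least 1 annotated snoRNA gene, beside 2.32% of the 14241 protein-coding genes matched. They are Taf1d with 8, Nop56 and Nop58 with 5 each, Ncl, Gnl3 and Wdr43 with 3 each, and Tsr1 with 2. All 7 hosts fell, with a median of -0.39, and of the other 38 members 28 fell and 2 rose, with a median of -0.32. Of all 331 such hosts 132 fell and 85 rose, with a median of -0.073.

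Some members lie close to genes on the other strand. Of the 42 members with a known strand, 10 (23.8%) start within 1000 bases of a gene that runs the other way, against 10.5% of all matched genes. Of the 8 such neighbours with a value 3 rose and none fell, beside 24.9% and 25.5% of all genes. Nop16 and its neighbour Higd2a had values of 0.032 and 0.41, Nop14 and Grk4 of -0.14 and 0.39, and Polr1a and Ptcd3 of -0.088 and -0.041. Polr1c and Yipf3, the remaining neighbour that rose, had values of 0.087 and 0.32. In addition 8 members (19%, against 15.5% of all) overlap a gene on the opposite strand. Without a stated strand, reads from a stretch that both genes share cannot be told apart. Among them were Wdr12 with Carf, whose value was 0.65, and Gnl3 with Pbrm1, at -0.20.

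The rest of the pathway was read from lists that hold no member. Beside their counts stand 25.5% of all genes that fell and 24.9% that rose, or 17.2% and 35.8% with scaling by total reads. Of 48 other small-subunit factors 32 fell and 1 rose, with a median of -0.18. Utp18 and Aatf, of the early precursor, fell the most beside Snu13 (-0.72 ± 0.054 and -0.58 ± 0.051), and Utp6 rose (0.15 ± 0.040, adjusted p = 0.00514). Of 54 other large-subunit factors 38 fell and 1 rose, with a median of -0.22. The steepest were Mrto4, a placeholder for a ribosomal stalk protein, with 4.88, 4.90 and 5.01 log2 CPM in control and 4.13, 4.15 and 4.09 in high glucose (-0.81 ± 0.052, adjusted p = 2.19e-08), the helicase Ddx56 (-0.65 ± 0.071) and the Puf-family protein Pum3 (-0.59 ± 0.036). Senp3, a SUMO protease, rose (0.21 ± 0.029). With scaling by total reads 14 small-subunit and 24 large-subunit factors fell, and 5 rose in each list.

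The other subunits and factors of RNA polymerase I were split: of 14 measured, 6 fell and 2 rose, and their median was 0.054. Cd3eap, a subunit of the polymerase, had 4.96, 5.07 and 4.96 in control and 4.46, 4.36 and 4.59 in high glucose and fell (-0.53 ± 0.060, adjusted p = 6.52e-06). Taf1a, of the selectivity factor, and Polr2f, a subunit shared by the 3 nuclear polymerases, fell as well (-0.44 ± 0.090 and -0.32 ± 0.054). Polr2e and Polr2k, also shared between polymerases, rose (0.43 ± 0.041 and 0.26 ± 0.086). The call of Polr2k was lost with a single variance prior (adjusted p = 0.0929) and when control 2 (0.0996), high glucose 1 (0.0965) or high glucose 3 (0.0655) was left out. Of 14 genes of the RNA exosome, the nuclease that trims ribosomal precursors, and its cofactors, only 2 passed, beside 25.5% of all genes that fell and 24.9% that rose. They were the nuclease Exosc10 and the core protein Exosc2, and both fell (-0.37 ± 0.038 and -0.27 ± 0.052). The median of the 14 was -0.067, and with scaling by total reads 2 fell and 3 rose.

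**Figure D5:**
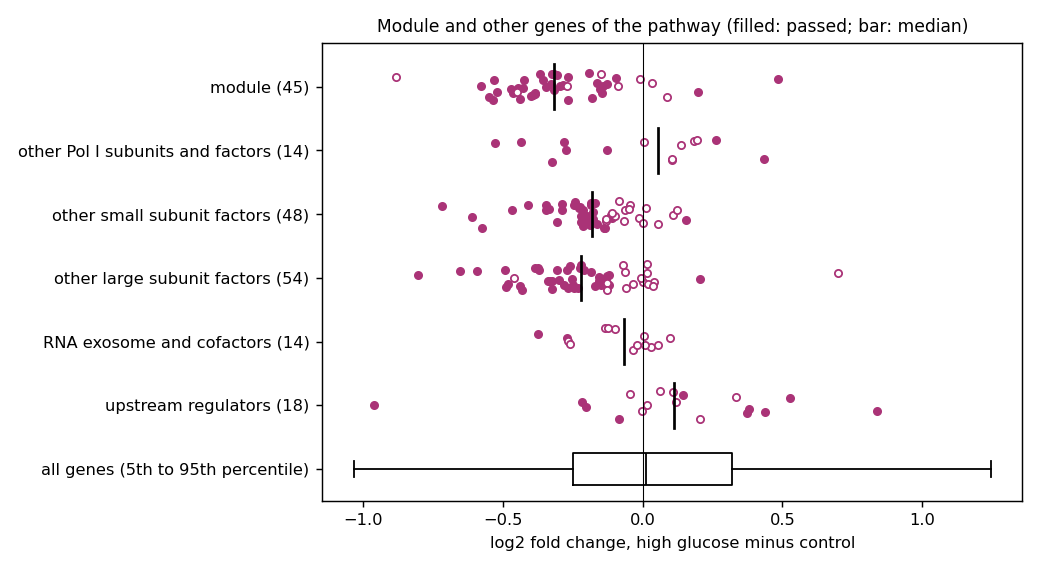
Log2 fold change of each gene in the module and in 5 other lists of the pathway (points, filled where the gene passed; bars, medians), above a box of all genes with whiskers at the outer percentiles named on the axis. Medians of the module and of the subunit factors lie below 0 (-0.32, -0.18 and -0.22), and those of the other polymerase genes and upstream regulators above it.

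Among 18 genes that act upstream on ribosome production 4 fell and 6 rose, with a median of 0.11, beside 25.5% and 24.9% of all genes. With scaling by total reads 2 of the 18 fell and 11 rose, beside 17.2% and 35.8% of all genes. Myc, the transcription factor known to drive this pathway, had 6.47, 6.41 and 6.36 log2 CPM in control and 5.45, 5.38 and 5.51 in high glucose. It was 1.95-fold lower, more than any member that passed (-0.96 ± 0.040, adjusted p = 2.73e-10). Mxd4 and Mxi1, which compete with Myc for its partner and repress E-box genes, rose (0.84 ± 0.034 and 0.53 ± 0.054). Mxd4 had 5.83, 5.82 and 5.91 in control and 6.70, 6.73 and 6.66 in high glucose, with no overlap. Mnt, of the same family, fell (-0.20 ± 0.046), but not with scaling by total reads (adjusted p = 0.0969). Tsc1, a brake on the growth kinase mTOR, rose (0.44 ± 0.033). Whether these changes bear on the module was not tested.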

How the data were processed

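RNA of 6 libraries was sequenced, 3 per group, grouped by their titles. The authors deposited a table of log2 values per gene and library that its name calls voom-normalized. HISAT2 2.1.0, fastp 0.19.4 and featureCounts 1.6.0, with Rnor_6.0 as build, are named in the submitters' processing notes. Their roles, settings, annotation and strand are not given in the sources used here. The deposited values are log2 CPM, taken from reads plus 0.5 and a scaled library size. All came within 0.01 of whole reads (100% of values), which gave 28780612 to 33108451 reads per library. Every row had reads in at least 3 libraries, so rarer genes are not analysed here.

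Members and lists were chosen with earlier results of these data known. A symbol on several rows was taken from the row with the highest mean. One model over all 16551 rows was fitted with limma 3.58.1 in R 4.3.3, with group as its term and a variance trend, tested two-sided and adjusted by Benjamini-Hochberg across the table, with a threshold of 0.05. It was also run on simulated reads with few changed genes and no scaling difference between groups. That setting differs from these data, so it does not test the calls that depend on scaling. Alternatives changed scaling, prior, weights, added reads, filter, fold threshold, block and libraries. Per-library values are given for Polr1a, Rrn3, Ubtf, Fbl, Nop56, Dkc1, Ncl, Npm1 and the 2 lowest and 2 highest passing members of each role. Of each other list up to 3 passing genes per direction are named, and Myc; 1 gene that this rule names is not reported here. The symbol Mpp6 was dropped from the exosome list because it also names another gene, and snoRNA host genes without a protein were not tested, since only 1 of the 16 listed had a row. Motifs of 10 letters planned for the promoters were not searched. Levels are not divided by length. Python 3.11.15 with matplotlib 3.10.9 made the figures. The second deposited table, of lncRNA rows, held no member and was not used.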

Additional observations from a re-analysis of the deposited data

How the results depend on the processing

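The count of members that fell stayed between 27 and 36 over the alternatives, except that 0 fell with at least 1.5-fold. With that fold threshold the counts lower were also 0 in each of the 6 roles, among the other polymerase genes and in the exosome list, 2 among small-subunit factors, 3 among large-subunit factors and 1 among upstream regulators, and the counts higher were 0 in the module, the other polymerase genes and both subunit lists and 1 among upstream regulators. Scaling by total reads left 1 polymerase member and 6 small-subunit members lower, and 4 members higher. In the other lists it gave 14, 24 and 2 lower (small subunit, large subunit, upstream) and 4, 5, 5, 3 and 11 higher (polymerase, small subunit, large subunit, exosome, upstream). A single variance prior gave 1 member and 1 other polymerase gene higher. In the exosome list 4 were lower and 1 higher after quantile normalization, and 1 higher when genes with a mean below 0 log2 CPM were left out. Leaving out 1 library gave 1 to 2 members and 1 to 2 other polymerase genes higher and 0 to 1 exosome genes higher, with 1 member higher without control 2 or high glucose 1, 1 polymerase gene higher when either of these, or high glucose 3, was left out, and 1 exosome gene without control 1. Changes of sign were seen for Polr1a (0.026) and Ubtf (0.016) with scaling by total reads, for Nob1 with the same scaling (0.11), after quantile normalization (0.014) and over libraries left out (-0.051 to 0.026), and for Heatr1 over libraries left out (-0.80 to 0.16).

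Same-numbered libraries did not deviate together (correlations of 0.0022, -0.015 and 0.014), so the numbers were not taken as pairs. With a replicate block 35 members fell and 2 rose. The block changed no call among the 66 genes checked singly, which were the members, Myc and the pathway genes picked by the naming rule. Cell type markers and neighbouring genes were not checked in this way. Nhp2 and Ebna1bp2 had the fewest reads of the members, and the part of depth in their missing calls was not tested. What ended the calls named here was not tested.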
